A study of Mus musculus with 14 samples.

Results

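The genes for mitochondrial ribosomal proteins were examined for meiotic DNA double-strand breaks (DSBs) in mouse testis. Members were the protein-coding genes of GENCODE M21 (genome build GRCm38) whose symbol is Mrpl or Mrps followed by a number and at most 1 letter, and 78 of 21755 protein-coding genes on the 19 autosomes and chromosome X qualified. Of these, 49 carried an Mrpl symbol (large subunit) and 29 an Mrps symbol (small subunit). None lay on chromosomes 12, 18 or X.

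The mitochondrial ribosome is a complex separate from the cytosolic ribosome. It translates the few proteins encoded by mitochondrial DNA, all of them subunits of the oxidative phosphorylation complexes, whereas its own proteins are encoded in the nucleus, made in the cytosol and imported. Their genes are expressed in nearly every cell and mostly start in CpG-rich promoters, many of them shared head to head with another gene. In mouse meiosis the histone methyltransferase PRDM9 binds DNA motifs that lie mostly away from promoters, and DSBs form there, but in mice without PRDM9 the breaks occur instead at default sites such as promoters.

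DMC1, the strand exchange protein that coats the resected single-strand DNA at DSB ends, was immunoprecipitated from whole testis, and the single-strand DNA was sequenced (DMC1-SSDS). Hells CTRL mice carried 1 floxed and 1 deleted allele of Hells (Hells fl/Δ), the gene of a chromatin remodeler, and were 5 weeks old, with 2 testes per replicate. Hells cKO mice had the same alleles and the Stra8-iCre transgene (Hells fl/Δ;Stra8-iCre), whose Cre is expressed in male germ cells around the entry into meiosis, and were 9 weeks old, with 3 testes per replicate. The labels call both groups adult, so age and genotype cannot be told apart, and the study describes residual HELLS in some cKO spermatocytes. The 2 replicates per genotype had been merged by the authors into 1 peak list, with 11133 peaks for Hells CTRL and 17117 for Hells cKO. There is therefore no spread between replicates and no test across mice, the read depth is unknown, and the intervals given here cover only the counting of genes, which are not replicates.

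Each peak had a strength, the authors' score, which was a whole number in every peak. The median strength was 63 in the Hells CTRL list and 31 in the Hells cKO list. No common scale for both genotypes was given, so strengths were ranked only within their own list. The percentile of a peak is its rank in its list, with 100 for the strongest. A gene was counted as having a peak when the midpoint of a peak lay within 1 kb of any annotated start of its transcripts, and the nearest such peak gave its strength. A start was called bidirectional when another protein-coding gene started on the opposite strand within 1 kb, and unidirectional otherwise. By this measure 33 members (42.3%) were bidirectional and 45 unidirectional, against 12.4% bidirectional among all coding genes. High shares were not particular to the members. They were 46.2% of 26 mitochondrial ribosome assembly genes, 36.8% of 19 mitochondrial aminoacyl-tRNA synthetase genes and 40% of 5 further mitochondrial ribosomal protein genes. Lower shares were found in 39 proteasome (28.2%), 84 cytosolic ribosomal protein (21.4%) and 13 mitochondrial translation factor genes (15.4%).

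The following start regions show what the members looked like in sequence. They comprise the 2 bidirectional members with the strongest Hells cKO peaks (Mrpl57, strength 205, and Mrpl50, strength 191), the second strongest unidirectional member (Mrps9, strength 115), the member without a Hells cKO peak that had the fewest CpG dinucleotides at its start (Mrpl34), and, chosen after its values were seen, the start that Mrps11 shares with a second member, Mrpl46. Each runs from 250 bases before to 50 bases after the RefSeq start (GRCm38.p6), 5′ to 3′ on the strand of the gene: chr14:57825989-57826288 (plus) for Mrpl57, chr4:49521034-49521333 (minus) for Mrpl50, chr1:42850983-42851282 (plus) for Mrps9, chr8:71464676-71464975 (plus) for Mrpl34 and chr7:78782881-78783180 (plus) for Mrps11. Capitals mark CCGGAAG (the ETS word), GCATGCGC (NRF1), AAGATGGC (YY1) and ACTACA (the first letters of the ZNF143 site) or their reverse complements.
Mrpl57: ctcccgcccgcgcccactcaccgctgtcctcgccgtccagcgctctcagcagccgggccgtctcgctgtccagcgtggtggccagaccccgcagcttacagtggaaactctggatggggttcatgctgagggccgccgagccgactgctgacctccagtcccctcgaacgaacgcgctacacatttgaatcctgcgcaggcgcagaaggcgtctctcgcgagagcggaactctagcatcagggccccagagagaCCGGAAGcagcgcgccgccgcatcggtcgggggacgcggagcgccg
Mrpl50: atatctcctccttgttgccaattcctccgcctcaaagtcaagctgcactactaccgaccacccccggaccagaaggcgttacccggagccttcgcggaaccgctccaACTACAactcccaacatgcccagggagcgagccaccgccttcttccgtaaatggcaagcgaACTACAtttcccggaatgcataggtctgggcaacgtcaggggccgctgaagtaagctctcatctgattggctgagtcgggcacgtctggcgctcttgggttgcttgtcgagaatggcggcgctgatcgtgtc
Mrps9: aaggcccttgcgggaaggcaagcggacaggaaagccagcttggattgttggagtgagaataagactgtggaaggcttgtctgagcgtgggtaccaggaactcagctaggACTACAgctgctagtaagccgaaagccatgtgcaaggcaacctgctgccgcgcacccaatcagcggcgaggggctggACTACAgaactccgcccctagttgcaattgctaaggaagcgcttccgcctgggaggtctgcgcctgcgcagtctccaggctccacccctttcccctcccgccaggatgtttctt
Mrpl34: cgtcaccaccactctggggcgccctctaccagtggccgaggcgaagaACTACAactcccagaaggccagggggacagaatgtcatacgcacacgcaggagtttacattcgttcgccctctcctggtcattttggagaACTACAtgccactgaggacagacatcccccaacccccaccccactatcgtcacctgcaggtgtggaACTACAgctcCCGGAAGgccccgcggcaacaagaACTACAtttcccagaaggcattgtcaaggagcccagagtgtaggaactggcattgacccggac
Mrps11: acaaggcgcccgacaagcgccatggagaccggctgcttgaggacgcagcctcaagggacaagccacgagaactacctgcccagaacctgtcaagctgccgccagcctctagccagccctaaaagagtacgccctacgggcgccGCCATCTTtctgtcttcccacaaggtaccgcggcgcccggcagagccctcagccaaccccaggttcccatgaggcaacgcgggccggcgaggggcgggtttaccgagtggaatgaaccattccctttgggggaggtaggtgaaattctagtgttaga
The words in these few starts are examples and cannot stand for starts with or without a peak, and ACTACA was chosen after the sequences were seen. Mrpl57 held 1 ETS word 4 bases after the start, Mrpl50 and Mrps9 held 2 ZNF143 words each, and Mrpl34, with no peak, held 4 ZNF143 words and 1 ETS word.

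In Hells CTRL mice 2 of the 78 members (2.56%, exact 95% interval 0.312 to 8.96%) had a DMC1 peak within 1 kb of a start, close to the 2.7% of all coding genes. Both were Mrps genes counted as bidirectional, 2 of 33 against 3.69% of all bidirectional coding genes. Of the 45 unidirectional members 0 had one, against 2.56% of all unidirectional coding genes. The class is that of the gene, and the Mrps5 peak lay at an internal start, 3519 bp downstream of the main start. The median member lay 62.0 kb from the nearest Hells CTRL peak.

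Mrps5, which encodes a core protein of the small subunit, had a Hells CTRL peak of strength 258 (percentile 85.5) at chr2:127589717-127591766. Its midpoint fell 300 bp downstream of an internal transcript start at position 127590441 but 3519 bp downstream of the main start, in a coding exon, and the 501 bp around the midpoint held 9 CpG dinucleotides. The Hells cKO list had no peak within 1 kb of any Mrps5 start, and the nearest was 2654 bp away with a strength of 25. Mrps30 was the only member with a peak in both lists: strength 24 (percentile 13.1) in Hells CTRL, at chr13:118385983-118387736, and strength 183 (percentile 96.2) in Hells cKO, at chr13:118385931-118387924. Its Hells CTRL midpoint lay in a coding exon, 393 bp from the main start, with 61 CpG dinucleotides in 501 bp. The contrast between these sites is visible in the 100 bases at each Hells CTRL midpoint (plus strand, GRCm38.p6), chr2:127590692-127590791 for Mrps5 with 2 CpG dinucleotides and chr13:118386810-118386909 for Mrps30 with 19.
Mrps5: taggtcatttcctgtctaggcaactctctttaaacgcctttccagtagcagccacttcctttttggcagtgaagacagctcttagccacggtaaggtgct
Mrps30: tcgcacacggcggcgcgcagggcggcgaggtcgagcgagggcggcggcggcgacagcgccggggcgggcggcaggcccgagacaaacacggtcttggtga
Further Hells CTRL peaks lay inside 4 members beyond 1 kb of their starts, all in introns. The share of all coding genes with such a peak is not given here, so this count is not read as a trait of the members. Mrps28 held a pair of them, with strengths 195 and 127, and Mrps21, Mrps31 and Mrpl1 held 1 each, with strengths 275, 78 and 51. Between 2 and 7 CpG dinucleotides surrounded these 5 midpoints. Mrps21 and Mrpl1 were named after their values were seen.

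In Hells cKO mice 56 of the 78 members (71.8%, interval 60.5 to 81.4%) had a peak within 1 kb of a start, and 45.6% of all coding genes did. Large-subunit genes had peaks at 35 of 49 (71.4%) and small-subunit genes at 21 of 29 (72.4%). Bidirectional members had peaks at 24 of 33 (72.7%, interval 54.5 to 86.7%), where all bidirectional coding genes had 77.6%. Unidirectional members had peaks at 32 of 45 (71.1%, interval 55.7 to 83.6%), where all unidirectional coding genes had 41.1%.

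The comparison with all coding genes depended on the CpG content of the starts. Among members, 75 (96.2%) had at least 20 CpG dinucleotides within 250 bp of the main start, against 56.5% of all coding genes. With the comparison held to genes at or above 20, the members' share was 70.7% and that of all coding genes 69.5%. In that range the share was 69.8% in unidirectional members and 66.7% in all unidirectional coding genes, both close together, and 71.9% in bidirectional members (interval 53.3 to 86.3%) and 82.0% in all bidirectional coding genes. The plot of shares with a Hells cKO peak shows both comparisons side by side.

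**Figure D1:**
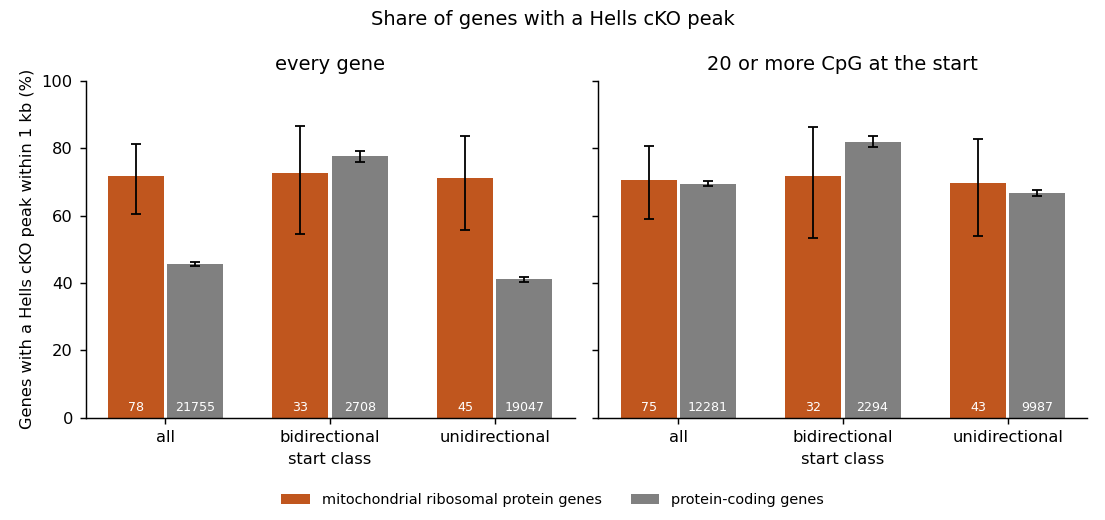
Percent of genes with a Hells cKO peak midpoint within 1 kb of a start, for mitochondrial ribosomal protein genes (orange) and all protein-coding genes (grey), by start class, over every gene (left) and over genes with at least 20 CpG dinucleotides within 250 bp of the main start (right). Bars carry exact 95% intervals for the counting of genes and the number of genes at their base. Over every gene the members stand at 71.8% and coding genes at 45.6%, and over CpG-rich genes at 70.7% and 69.5%.

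The peaks at member starts ranged from percentile 5.23 to 97.1 of the list. Their median strength was 37.5 (quartiles 24.5 and 70.75, range 11 to 205), and their median percentile was 58.1 (interval 51.6 to 69.9). All coding genes with a peak had a median strength of 47 and a median percentile of 66.5, the latter inside the interval of the members. Among genes with at least 20 CpG dinucleotides at the main start, the median percentile was 56.4 in members and 68.5 in coding genes. By class it was 58.6 against 74.0 in bidirectional and 52.3 against 66.5 in unidirectional genes. These CpG-rich medians are given without intervals, and their difference was not tested. Peaks in the strongest 10% of the list (strength of 120 or more) made up 12.5% of the peaks of members and 17.3% of those of all coding genes with a peak. Over all genes, with or without a peak, these shares were 8.97% of members and 7.88% of coding genes. Bidirectional members had a median strength of 43.5 (percentile 63.2, interval 51.6 to 84.6) and unidirectional members one of 35 (percentile 55.2, interval 42.4 to 70.5), so the intervals of both classes overlapped. The order of these medians depended on the definition of a bidirectional start. With head-to-head starts only (any such pair within 1 kb), the median percentile was 57.5 in bidirectional and 61.2 in unidirectional members. With opposite starts within 500 bp it was 58.6 in bidirectional and 57.5 in unidirectional members. The median strengths over all bidirectional and unidirectional coding genes were 58 and 44.

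Under the 1 kb definition, the upper end of the ranking was occupied by bidirectional starts. Among the strongest, Mrpl41 (gap 935 bp) becomes unidirectional when opposite starts must lie within 500 bp. Mrps30 does so when partners with Gm or Rik symbols are left out. The 6 strongest member peaks were all at bidirectional starts, and 6 of the 33 bidirectional members (18.2%) reached the strongest 10%, with 18% for all bidirectional coding genes. Of the 45 unidirectional members, 1 (2.22%) reached it, with 6.44% for all unidirectional coding genes. The members' shares thus stood close to those of their class in the bidirectional genes and below in the unidirectional ones, the latter on a single gene.

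The strongest peak, of strength 205 (percentile 97.1) at chr14:57825270-57827237, lay at Mrpl57, whose start is 49 bp from that of Ska3, the gene of a kinetochore protein. Mrpl50 had a peak of strength 191 at chr4:49519826-49521825 and starts 83 bp from the zinc finger gene Zfp189. Mrpl41 had one of strength 188 at chr2:24974111-24976320 and starts 935 bp from Pnpla7, a lysophospholipase gene, the widest gap of any bidirectional member. After Mrps30 (183, opposite B430218F22Rik) came Mrpl47 with a strength of 169 at chr3:32735181-32738100. By the nearest pair of opposite starts, Ndufb5, a subunit gene of respiratory complex I, starts 20 bp downstream of Mrpl47. Mrpl51 followed with 147 at chr6:125190462-125193147 and starts 100 bp from Ncapd2, a condensin subunit gene.

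Unidirectional starts came next. Mrpl15 had a peak of strength 129 at chr1:4784371-4786550, Mrps9 one of 115 at chr1:42850554-42852723 and Mrps28 one of 105 at chr3:8922594-8924479. Mrps18c, with a strength of 92 at chr5:100797731-100799608, starts 29 bp from Helq, the gene of a DNA repair helicase. Its paralogs differed from it: Mrps18b had a strength of 22 and Mrps18a no peak. All 10 of these peaks were at or above percentile 84.6, the value of Mrps18c.

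At the lower end, Mrpl10 had a strength of 11 (percentile 5.23) beside Lrrc46, and Mrpl42 and Mrpl58 had 13 each. Mrpl58 encodes a peptidyl-tRNA hydrolase that releases stalled mitochondrial ribosomes. Mrps27, opposite Ptcd2, had 14, and Mrpl48 and Mrpl55 had 15. These weak peaks occurred in both classes, with Mrpl10 and Mrps27 bidirectional and Mrpl42, Mrpl58 and Mrpl55 unidirectional. Mrpl48 counts as bidirectional, but its peak of 15 lies at an internal start away from the partner. In all, 37 of the 56 members had peaks at or above the middle of the Hells cKO list, and 7 had peaks below percentile 25. The same lean to the upper part held for all coding genes with a peak. Their first quartile was percentile 40.7 and their median 66.5, against 39.8 and 58.1 in the members.

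**Figure D2:**
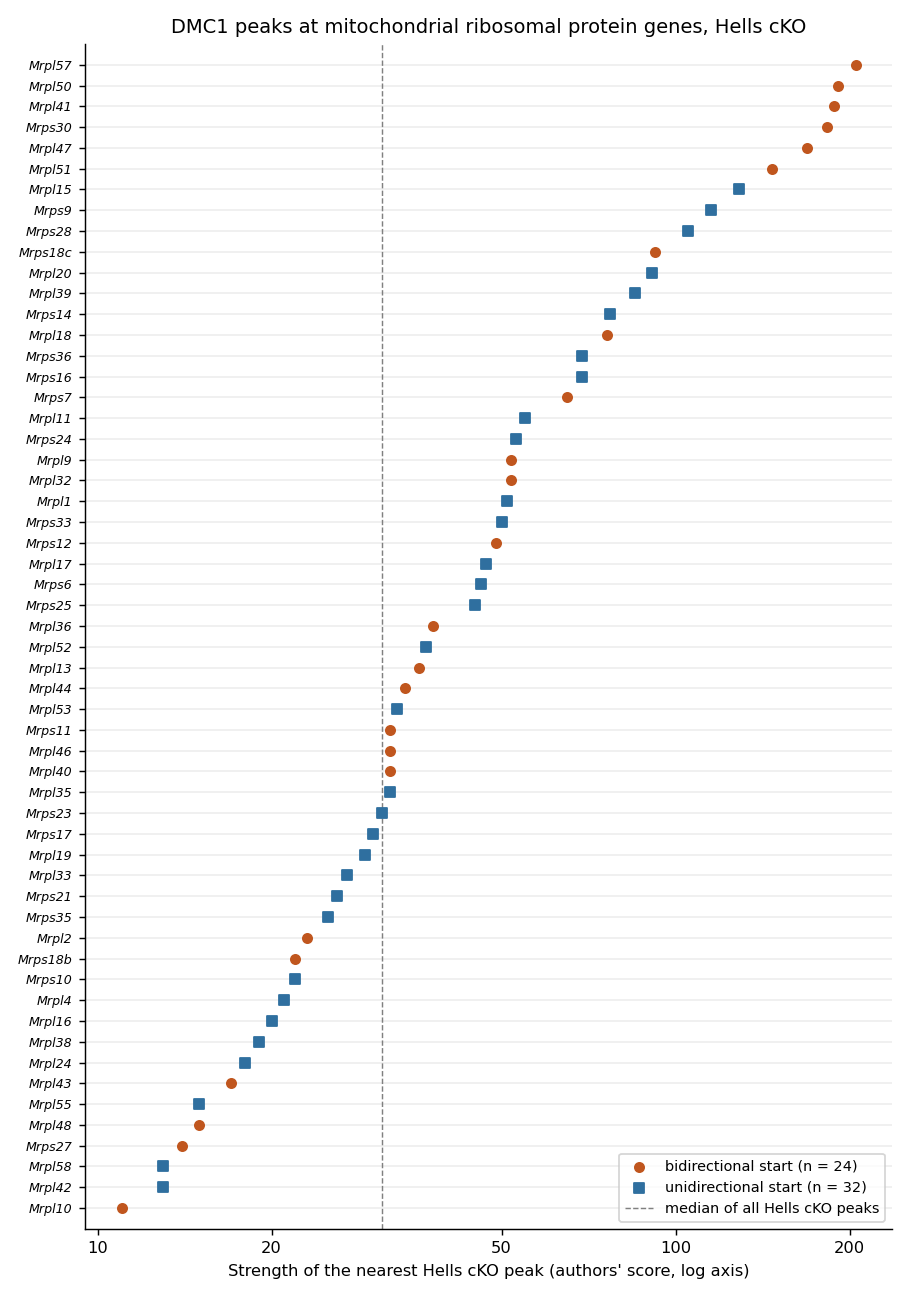
Strength of the Hells cKO peak nearest to a start of each of the 56 members with a peak (log axis, authors' score), ordered from weakest to strongest, with orange circles for bidirectional and blue squares for unidirectional starts. The dashed line marks the median of all Hells cKO peaks, 31. The 6 strongest, from 147 to 205, are all circles, and below them both classes mix down to 11.

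In 1 case a pair of members shared a start region. Mrpl46 and Mrps11, a large- and a small-subunit gene, start 30 bp apart in opposite directions, and a single Hells cKO peak of strength 32 (percentile 51.6) at chr7:78782364-78783743 covered both, so that the 56 members had 55 distinct peaks. Mrpl33 and Mrpl48 had 2 peaks each. Those of Mrpl33 had strengths 18 and 27. Of those of Mrpl48, the nearest, with 15, was at an internal start, and the other, with 56 (percentile 72.1), was at chr7:100606748-100608905, where the gene begins opposite Rab6a, so the rule of the nearest peak gives Mrpl48 the lower value.

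Further partners of known function are given as single values, named after the values were seen and not as a group. Mrps12 starts 172 bp from Sars2, the mitochondrial seryl-tRNA synthetase, under a peak of strength 49. Mrpl43, 116 bp from Twnk, the mitochondrial replicative helicase, had 17, and Mrpl36, opposite the complex I gene Ndufs6, had 38. Mrpl32, opposite the proteasome gene Psma2, had 52, Mrpl18, opposite the chaperonin gene Tcp1, had 76, and Mrpl40, opposite the histone chaperone gene Hira, had 32. No Hells cKO peak was found at Mrpl27 and Mrps34, although they start 47 and 29 bp from Eme1 and Eme2, whose products are partners of the MUS81 nuclease, nor at Mrpl49, 59 bp from the ribosomal protein gene Fau.

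The gap between the opposite starts was small. Its median was 52 bp over the 33 bidirectional members, and 30 of them had a gap of at most 200 bp. The gaps of all bidirectional coding genes are not given here, so these values are not read as a trait of the members. By the nearest pair of opposite starts, the partner's start lay downstream of the member's in 8 members (overlapping) and upstream in 25 (head to head). Peaks were found at all 8 overlapping members (interval 63.1 to 100%). Of the 25 head to head, 16 had a peak (64.0%, interval 42.5 to 82.0%), and these intervals overlapped. Other start pairs of a gene can be arranged otherwise. Counting any head-to-head pair within 1 kb, 20 of 29 members had a peak (69.0%). Over all coding genes the shares were 73.4% of overlapping and 78.7% of head-to-head starts.

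Peak midpoints lay close to annotated starts. Distances were taken to the nearest of all annotated starts of a gene, which can differ from the main start. At Mrpl1, for example, the midpoint was 12 bp from the nearest start and 663 bp from the main start. The median distance was 120.5 bp, against 145 bp in all coding genes with a peak, 46 of 56 midpoints were within 250 bp and 54 within 500 bp, and the farthest, at Mrps18b, was 694 bp upstream. In unidirectional members 25 of 32 midpoints (78.1%) lay downstream of the nearest start, and the median over all 32 was 55 bp downstream. Only 4 of these 32 midpoints lay outside the gene, since a midpoint upstream of its nearest start can still lie inside it. In bidirectional members 13 of 24 (54.2%) were downstream and the median was 11 bp, with the midpoint nearer to the member's start in 12 and to the partner's in 12. All coding genes showed 71.5% and 44.9% downstream in the 2 classes, so the members' midpoints followed the same order. Peaks were 1380 to 2920 bp wide (median 1975 bp, and 1958 bp in the whole list), and 23 of the 24 peaks at bidirectional members covered both starts, the exception being that of Mrpl48. Such a peak cannot be assigned to the member or to its partner.

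**Figure D3:**
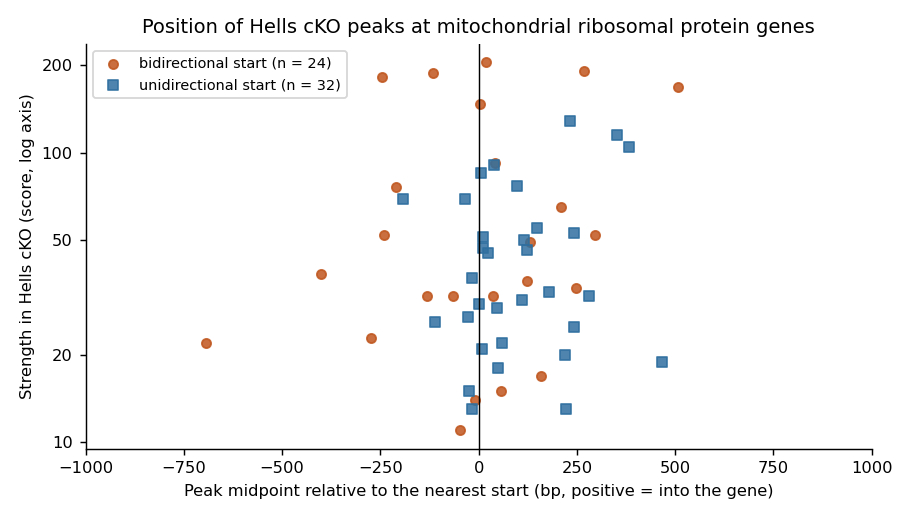
Distance of the peak midpoint from the nearest start of the member (horizontal axis, bp, positive into the gene) against Hells cKO peak strength (vertical log axis) for the 24 bidirectional (orange circles) and 32 unidirectional (blue squares) members with a peak. Squares fall mostly to the right of the start (25 of 32) and circles on both sides (13 of 24 to the right), at all strengths.

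The 22 members without a Hells cKO peak were 14 large-subunit genes (Mrpl3, Mrpl12, Mrpl14, Mrpl21, Mrpl22, Mrpl23, Mrpl27, Mrpl28, Mrpl30, Mrpl34, Mrpl37, Mrpl45, Mrpl49 and Mrpl54) and 8 small-subunit genes (Mrps2, Mrps5, Mrps15, Mrps18a, Mrps22, Mrps26, Mrps31 and Mrps34). Their nearest Hells cKO peak was 2654 to 324387 bp away, with a median of 23.1 kb, and 4 of them had one within 10 kb. No further member was gained when the reach was widened to 2 kb. By chromosome, all 7 members on chromosome 6 and all 5 on each of chromosomes 3 and 13 had a peak, while chromosome 2 had 1 of 4, chromosome 8 had 0 of 2, chromosome 17 had 4 of 8 and chromosome 11 had 7 of 11. The share over all coding genes ranged from 40.2% to 53.5% on these chromosomes.

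The CpG content of the start did not separate these genes from the members with a peak. The median within 250 bp of the main start was 37 (range 20 to 59) in members without a peak and 35.5 (range 17 to 63) in members with one. Over all coding genes it was 9 without and 40 with a peak. The ranges are unlike, since 96.2% of members but 56.5% of all coding genes had at least 20. At 20 to 29 and at 50 or more, 56.6% and 74.7% of coding genes had a peak. In members these shares were 72.2% (13 of 18) and 66.7% (6 of 9). The highest counts without a peak were 59 at Mrps34, 52 at Mrps26 and 50 at Mrpl49. All 3 members with fewer than 20 CpG dinucleotides (Mrpl1, Mrps12 and Mrpl11) had a peak, with strengths 51, 49 and 55. The interval of this share was 29.2 to 100%, and 14.6% of all coding genes below 20 had a peak. These counts are those of the main start. Around the peak midpoints the 3 members held 30, 20 and 25 CpG dinucleotides, so these peaks are not examples of CpG-poor sites. Among members with a peak, strength and CpG count were weakly related, with Spearman's rho of 0.123 over 56 members and 0.236 over 9925 coding genes, a description over genes that share the same libraries.

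**Figure D4:**
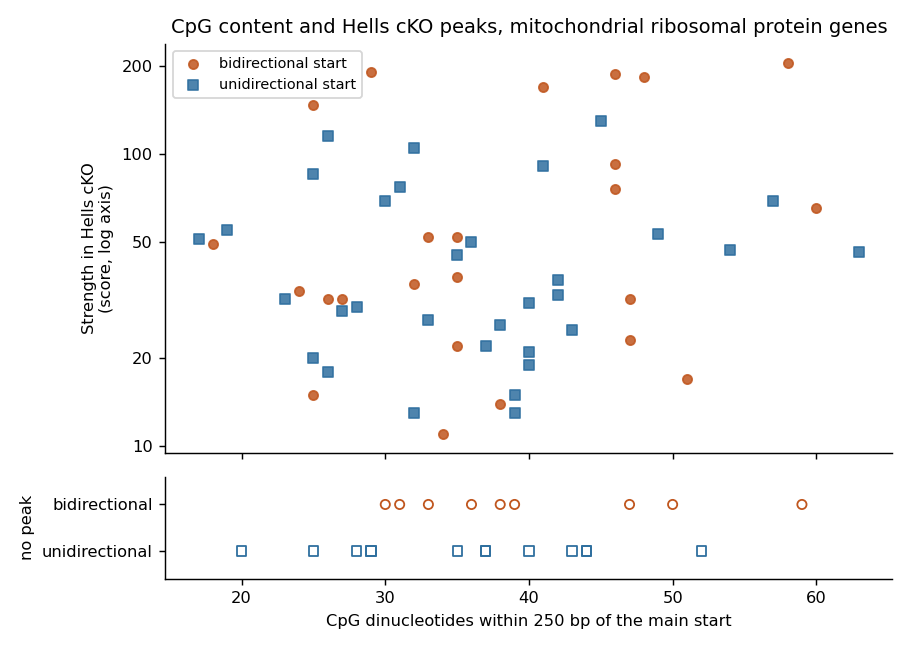
CpG dinucleotides within 250 bp of the main start (horizontal axis) against Hells cKO peak strength (upper panel, log axis) for the 56 members with a peak, and the CpG counts of the 22 members without one (lower panel, open symbols), with orange circles for bidirectional and blue squares for unidirectional starts. The open symbols span 20 to 59, nearly the range of the filled ones, 17 to 63.

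The words marked in the sequences above were counted on both strands in windows from 250 bases before to 50 bases after the main start of every coding gene. The ETS word CCGGAAG was in 37.2% of member windows and in 18% of those of coding genes with at least 20 CpG dinucleotides (11.3% of all coding genes). For the YY1 word AAGATGGC these shares were 14.1% and 4.63% (3.09% of all), for the NRF1 word GCATGCGC 10.3% and 5.59% (3.46%), and for the ZNF143 letters ACTACA, chosen after the sequences were seen, 16.7% and 9.76% (10.9%). The SP1 word GGGCGG was in 47.4% of member windows and 71.7% of CpG-rich ones (45.8% of all), and CCAAT, the core of the NF-Y site, in 34.6% and 37.3% (38.5%). ETS factors, NRF1, YY1 and ZNF143 are transcription factors known to bind promoters of housekeeping genes, and a match describes the sequence, not a bound site.

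The ETS word was equally frequent in members with a Hells cKO peak (21 of 56, 37.5%) and without (8 of 22, 36.4%). Members with a peak had a median strength of 27 with the word and 50 without it, and over all coding genes these medians were 49 and 46. The order of the members was not the same in both classes, with 26.5 against 50.5 in unidirectional and 49 against 38 in bidirectional members. No test was made of these medians.

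Hells cKO peaks were also found at other genes of mitochondrial translation. The shares to read them against are 45.6% of all coding genes and 69.5% of those with at least 20 CpG dinucleotides. All 5 genes of further mitochondrial ribosomal proteins had one, with strengths of 138 at Aurkaip1, 110 at Chchd1, 62 at Dap3, 40 at Gadd45gip1 and 29 at Ptcd3. Peaks were also present at 10 of 13 mitochondrial translation factor genes, with 145 at Mtrf1l, a release factor, and none at Mtif3, Taco1 and Tsfm. Of 26 genes of ribosome assembly and rRNA modification 21 had one, the strongest being Mterf3 with 167, and of 19 mitochondrial aminoacyl-tRNA synthetase genes 14 had one. In Hells CTRL only Mtfmt (strength 39) and Mtg2 (strength 24) of these 63 genes had a peak.

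Genes of the cytosolic ribosome and the proteasome, with at least 20 CpG dinucleotides at 94.0% and 92.3% of starts, gave the scale of other housekeeping complexes. Peaks were found at 66 of 84 cytosolic ribosomal protein genes (78.6%, interval 68.3 to 86.8%, median strength 56) and at 32 of 39 proteasome subunit genes (82.1%, interval 66.5 to 92.5%, median strength 44.5). Both intervals overlapped that of the members. In Hells CTRL, 1 and 0 of these genes had a peak.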

How the data were processed

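DMC1-SSDS peak lists of Hells CTRL and Hells cKO testes were used, and the 5hMeDIP samples were not analysed here. According to the methods, the authors filtered reads (Phred score above 28), shortened them to 50 bp, aligned them to mm10 (GRCm38), called peaks with MACS (2.0.10) and retained the highest-ranked peaks from pooled reads, their number set by the Irreproducible Discovery Rate between replicates and between pseudo-replicates. The deposited score, the strength of a peak, is described as a fragment count normalized to local background and library size, but all deposited values are whole numbers, so its exact scale is not known here.

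From the lists, peak midpoints were joined to GENCODE M21 starts (reach 1 kb), the main start was that of the APPRIS principal transcript, and percentiles were mid-ranks within a list. Intervals are exact (Clopper-Pearson for shares, order statistics for medians, 95%). All coding genes include the members. Printed promoters came from RefSeq GRCm38.p6 (69 of 78 members matched, none for Mrpl15 and Mrps34). Word counts and CpG dinucleotides (501 bp) came from the genome. Members and gene lists were chosen with earlier results of these data known. Named genes were the 10 strongest and 5 weakest Hells cKO peaks with ties, all members with a Hells CTRL peak, without a Hells cKO peak, with a shared start or with several peaks. Others were named after their values were seen. Alternatives were the reach, the starts used, stronger peaks only, the strongest peak in reach and other definitions of a bidirectional start. In simulated data, all 400 genes were assigned as the 1 kb rule requires, and the bidirectional calls of 719 genes equalled an all-against-all search. Both used the same starts and distances as the report, so they check the code only, not the annotation or the reach. The code ran in Python 3.11.15 with scipy 1.17.1, pandas 2.3.3, numpy 2.4.6 and, for plots, matplotlib 3.10.9.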

Additional observations from a re-analysis of the deposited data

How the results depend on the processing

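Each count and median was recomputed under up to 10 alternative settings, which gave 54 recomputed values in all. Of these, 50 were a count within 1.5 times the one reported or a median inside its interval. The values overlap in genes and several equalled the reported one exactly, so they are not independent checks. The rule for counts is wide. It passes the 38 members (48.7%) with a Hells cKO peak among the stronger peaks only, outside the reported interval of 60.5 to 81.4%. The share of all coding genes among the stronger peaks is not given here. The count of members with a Hells CTRL peak was 4 with a reach of 2 kb and 1 with the stronger peaks only (at or above the median strength of each list). With the stronger peaks only, 19 unidirectional members had a Hells cKO peak and the median percentile of all members with one was 71.0, since this alternative leaves out the weaker peaks. Bidirectional members with a Hells cKO peak numbered 19 to 24 and all members 38 to 56 over their alternatives. The median percentile was higher in bidirectional members as reported but lower with head-to-head starts only (57.5 against 61.2). Leaving out partners with Gm or Rik symbols, chosen after seeing the data, left 23 of 32 bidirectional members with a peak. No paired analysis was possible because the authors merged the replicates before the lists were made, and no replicate could be left out for the same reason. The unknown depth leaves peaks below the authors' threshold unseen, so a missing peak is a peak not listed, and 22 members without one may hold weaker signal.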
